A study of Mus musculus with 12 samples.

Results

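The 10 genes described here encode transcription factors of B-lineage specification: Ebf1, Pax5, Foxo1, Pou2af1, Ikzf1, Ikzf3, Bach2, Bcl11a, Lef1, and Myb. They were chosen by name and found by symbol in the deposited TPM table (transcript levels per gene length, with one common total for all libraries). All 10 were present, with 1 row each, of 47643 genes in the table. All 10 also passed the filter for testing, a mean of at least 1 TPM over all libraries, as did 14479 genes in all.

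Common lymphoid progenitors (CLPs, sorted as lineage-negative, Sca1-low, cKit-low, and IL7Rα-positive bone marrow cells) came from 12 male mice of 27 to 32 weeks, and each mouse gave 1 poly(A)+ library. The 4 WT mice carried an intact Firre gene, the X-linked source of a nuclear long noncoding RNA. The 4 ∆Firre mice (labelled KO) carried a germline deletion of the whole gene body and promoter, made with CMV-Cre from a floxed allele of embryonic stem cells. The 4 Firre rescue mice (labelled Rescue) carried the same deletion and also a Firre cDNA transgene behind a tet-responsive minimal promoter and the CAG-rtTA3 activator, and were fed doxycycline chow. Mice with the activator and doxycycline but no Firre transgene were not analysed here, so those agents and Firre RNA cannot be told apart in the rescue.

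A CLP can still become a B cell, T cell, NK cell, or dendritic cell. Myb, Ikzf1, and Bcl11a act early and prepare the lymphoid program, and E2A proteins and Ebf1 then switch on B-lineage genes. Ebf1 acts with Foxo1 and activates Pax5, which holds the cell to the B-lineage, and targets of these factors include the components of the pre-B cell receptor. Firre RNA was read first, as a check of the labels. It was listed at 0 TPM in all 4 ∆Firre libraries, lay between 25.2 and 31.6 TPM in WT, and between 59.9 and 174 TPM in the rescue. The CLP label was checked on 9 markers, none of which fell below 24.1 TPM in any library. Il7r, the receptor chain used in the sort, lay between 353 and 525 TPM over all 12 libraries, and Flt3 between 506 and 709 TPM. The 9 markers summed to 6330 to 8930 TPM in WT, 7430 to 7730 TPM in ∆Firre, and 8920 to 9760 TPM in the rescue. Dntt was the highest and made up most of each sum. Dntt, Rag1, and Ly6d are also on the list of early B-lineage genes read below. In each comparison with the rescue 4 of the 9 were called. Against ∆Firre, Kit, a receptor used in the sort, changed by -0.49 (limma adjusted p = 0.0137) and Cd34 by -0.3 (0.0264), and against WT by -0.4 (0.0373) and -0.33 (0.0208). Ly6d (1.36 and 1.24) and Rag1 (0.73 and 0.85) were higher against ∆Firre and WT, so the markers of the progenitor did not stay level as a group.

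The promoters of the factors called higher in the rescue than in WT are shown, so that their bases can be read side by side. Foxo1 is among them, although it was not called against ∆Firre. Each line holds the 250 bases before a RefSeq transcription start, 5′ to 3′ in the direction of the gene (GRCm38.p6). Capitals mark matches on either strand to 7 short motifs: CCCNNGGG (EBF), CAGGTG (an E-box bound by E2A), ATGCAAAT (octamer, the site at which Pou2af1 is recruited), CTTTGAT (TCF/LEF), GTAAACA (FOXO), CCGGAAG (ETS), and TGGGAA (Ikaros). Lef1 has 4 listed starts, of which the first is shown, and Ebf1 has 2.
Ebf1 (chr11:44617850-44618099, + strand): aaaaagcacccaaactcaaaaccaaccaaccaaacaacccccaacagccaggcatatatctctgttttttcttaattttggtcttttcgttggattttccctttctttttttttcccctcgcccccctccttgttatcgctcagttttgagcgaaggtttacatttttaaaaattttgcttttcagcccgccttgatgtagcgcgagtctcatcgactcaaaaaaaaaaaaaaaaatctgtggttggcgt
Ebf1 (chr11:44619978-44620227, + strand): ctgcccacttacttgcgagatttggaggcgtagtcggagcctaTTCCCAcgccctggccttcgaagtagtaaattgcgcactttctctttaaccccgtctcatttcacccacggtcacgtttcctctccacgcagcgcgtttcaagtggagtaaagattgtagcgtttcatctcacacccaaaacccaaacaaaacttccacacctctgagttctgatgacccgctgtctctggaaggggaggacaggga
Pax5 (chr4:44710695-44710944, - strand): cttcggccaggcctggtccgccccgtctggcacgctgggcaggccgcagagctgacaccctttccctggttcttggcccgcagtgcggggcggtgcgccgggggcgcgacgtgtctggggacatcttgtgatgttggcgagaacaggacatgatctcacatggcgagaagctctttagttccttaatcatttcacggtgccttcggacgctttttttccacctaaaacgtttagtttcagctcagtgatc
Pou2af1 (chr9:51213440-51213689, + strand): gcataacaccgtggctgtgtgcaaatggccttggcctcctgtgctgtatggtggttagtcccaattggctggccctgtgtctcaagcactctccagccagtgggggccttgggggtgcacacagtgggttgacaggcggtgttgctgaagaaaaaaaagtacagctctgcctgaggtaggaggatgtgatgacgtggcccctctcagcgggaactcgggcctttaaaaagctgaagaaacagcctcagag
Lef1 (chr3:131110047-131110296, + strand): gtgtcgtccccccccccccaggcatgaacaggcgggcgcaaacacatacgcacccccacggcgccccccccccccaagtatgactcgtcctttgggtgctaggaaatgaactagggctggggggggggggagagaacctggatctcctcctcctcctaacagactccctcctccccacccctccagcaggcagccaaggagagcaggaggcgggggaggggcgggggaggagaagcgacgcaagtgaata
Foxo1 (chr3:52268087-52268336, + strand): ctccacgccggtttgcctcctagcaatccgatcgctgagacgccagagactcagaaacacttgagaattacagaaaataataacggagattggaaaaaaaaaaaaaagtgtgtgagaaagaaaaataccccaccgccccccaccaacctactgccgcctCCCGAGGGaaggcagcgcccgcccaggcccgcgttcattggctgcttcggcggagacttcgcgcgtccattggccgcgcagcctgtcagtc

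The second Ebf1 window held the Ikaros letters, and the Foxo1 window held the EBF letters. The windows shown for Pax5, Pou2af1, and Lef1 held none of the 7 motifs. Over 14 windows of 9 members (Ikzf3 was not matched), the EBF letters were found in 2, the Ikaros letters in 2, the ETS letters in 1, and the other motifs in none. Of 32851 windows of the same length in the table, 11.8% held the EBF letters, 21.6% the Ikaros letters, 6.91% the ETS letters, 17.2% the E-box, 1.6% the octamer, 3.21% the TCF/LEF letters, and 3.17% the FOXO letters. A match is only a run of letters, and a window without one may still be bound. The GC content of the windows shown ran from 40% in the first Ebf1 window to 66.4% in Lef1, against a median of 52.4% over all windows.

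The first question was how the members rank in a CLP. In WT, Myb (chr10:21124930-21160984) was highest at 697 ± 65.9 TPM (SD, n = 4), and Ikzf1, which encodes Ikaros (chr11:11684962-11772930), followed at 459 ± 13.2 TPM. Bcl11a (chr11:24076564-24173558), a zinc finger factor needed for early lymphoid progenitors, came next at 68.8 ± 6.17 TPM. The libraries of these 3 did not overlap with each other. Pou2af1 (41.4 ± 10.4 TPM), Ebf1 (29.2 ± 6.6), Foxo1 (22.3 ± 6.33), Pax5 (21.5 ± 6.49), Bach2 (19 ± 2.78), and Ikzf3 (16.8 ± 6.77) followed, and each overlapped with its neighbor in this order. Lef1 was lowest at 3.96 ± 0.82 TPM and lay below Ikzf3 in every library.

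In ∆Firre the order was nearly that of WT, with Bach2 at 19.9 ± 2.01 TPM now ahead of Pax5 at 18.4 ± 3.3 TPM (SD, n = 4), and those libraries overlapped. In the rescue the order changed in the middle and at the end. Pou2af1 had a mean above that of Bcl11a, although it was the higher of the pair in only 2 of 4 libraries. Pax5 stood above Foxo1 and Bach2 with no overlap. Ikzf3 fell to the last place, below Lef1 in 3 of 4 libraries. The 10 genes together summed to 1240 to 1460 TPM in WT, 1220 to 1380 TPM in ∆Firre, and 1240 to 1600 TPM in the rescue, most of it Myb and Ikzf1.

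**Figure D1:**
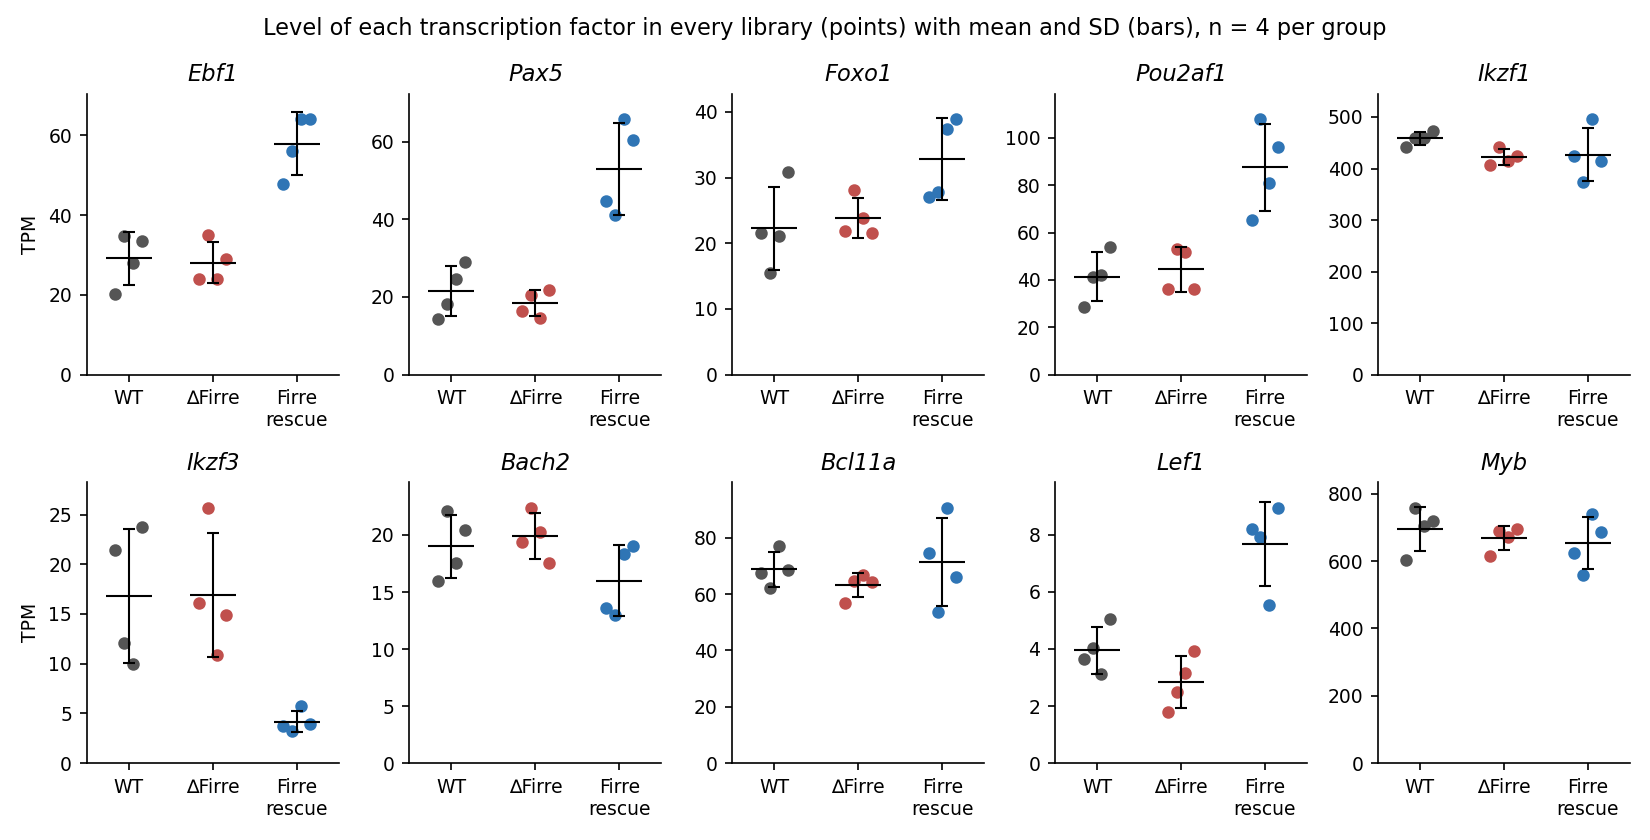
Each panel shows 1 transcription factor, with TPM on a linear axis from 0 and 1 point per library, and bars giving the mean and SD of the 4 libraries of WT, ∆Firre, and Firre rescue. Ebf1, Pax5, Pou2af1, and Lef1 sit higher in every rescue library than in any WT or ∆Firre library, Ikzf3 sits lower in every one, and Myb, Ikzf1, and Bcl11a overlap.

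The second question was what loss of Firre did to these factors. None of the 10 members was called between ∆Firre and WT at an adjusted p of 0.1 (limma with Benjamini-Hochberg adjustment over all genes tested), where 3 genes, or 0.0207% of those tested, were called in all. The authors used another method, DESeq2 on counts with empirical p-values, and called more genes at that threshold. No member was called by limma-voom on recovered reads either. In the limma fit of all 12 libraries, none had an unadjusted p under 0.05. The spread in that fit includes the rescue libraries. With only WT and ∆Firre in the limma fit, the lowest adjusted p of a member was 0.538 (Ikzf1, -0.12). In none of the 10 did the ∆Firre and WT libraries stand apart, against 5.33% of all genes tested. The fitted changes ran from -0.38 (Lef1) to 0.13 (Foxo1) on the log2(TPM + 1) scale. Their median was -0.05, beside -0.06 over all genes tested.

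How far a change could have gone unseen differed among the members. For Ikzf1 the 95% interval of the difference ran from -0.3 to 0.06 and for Myb from -0.27 to 0.15, so that changes of more than 0.3 log2 units in either direction lie outside both. For Ebf1 it ran from -0.43 to 0.35, for Pax5 from -0.67 to 0.3, and for Ikzf3 from -0.63 to 0.7. Lef1 had the widest interval on the lower side, -0.94 to 0.17. Its levels were 1.8, 2.48, 3.16, and 3.94 TPM in ∆Firre and 3.64, 4.04, 3.11, and 5.05 TPM in WT.

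WT and ∆Firre libraries fall into 2 ranges of library numbers, with 2 libraries of each genotype in each range. Ebf1 was lower in ∆Firre by a log2 difference of -0.49 in the lower range and higher by 0.4 in the upper range. Pax5 gave -0.53 and 0.16 in the same order, and Ikzf3 gave -0.33 and 0.39. Ikzf1 was lower in both, with -0.19 and -0.06. With 2 libraries against 2, these are values with no test.

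The third question was what changed when Firre RNA was supplied to the deleted background. Among the members, 4 were higher in the rescue than in ∆Firre, beside 8.58% of all genes tested that were called higher, and 1 was lower, beside 19.3% called lower. The libraries of the 2 groups did not overlap for these 5, beside 21.9% of all genes tested. Against WT, 5 members were called higher, beside 4.82% of all genes, and 1 lower, beside 19.4%. In that comparison 5 members did not overlap, beside 18.0% of all genes. The median log2 fold change of the 10 members was 0.29 against ∆Firre and 0.29 against WT, beside medians of -0.16 and -0.21 over all genes tested. The split over all genes depended on the scaling. Of all genes called against ∆Firre, 30.7% were higher in the rescue, and this was 50.2% after median-ratio rescaling, 45.6% with limma-voom on recovered reads, and 70.3% after GC correction. Against WT the same shares were 19.9%, 50.6%, 44.6%, and 66.9%. Both comparisons share the rescue libraries. The rescue libraries also have the lowest library numbers, a range that holds no other group, so that range and group cannot be told apart.

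Ebf1, early B-cell factor 1 (chr11:44618100-45008096), stood at 20.2, 34.7, 28.1, and 33.6 TPM in WT libraries 6, 8, 10, and 11. In ∆Firre libraries 8, 9, 11, and 12 it stood at 24.1, 34.9, 24.1, and 29.1 TPM, and in rescue libraries 1 to 4 at 47.7, 56, 64, and 64.1 TPM. Every rescue library lay above every other library. The log2 fold change was 1.03 (SE 0.18) against ∆Firre, with an adjusted p of 0.0028 (limma). Against WT it was 0.99 (SE 0.18), with an adjusted p of 0.00416 (limma).

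Pax5 (chr4:44524748-44710694), which commits cells to the B lineage, showed the largest fitted rise of the 10 in both comparisons, but not after GC correction, where it was 1.25 against ∆Firre (Lef1 1.49, Ebf1 1.44) and 1.27 against WT (Ebf1 1.37, Pou2af1 1.33). It was 14.3, 18.3, 24.7, and 28.9 TPM in WT, 16.5, 20.6, 14.7, and 21.7 TPM in ∆Firre, and 44.7, 41.2, 65.8, and 60.3 TPM in the rescue. The lowest rescue library was above the highest WT library by a wide margin. The log2 fold change was 1.47 (SE 0.22, limma adjusted p = 0.00119) against ∆Firre and 1.28 (SE 0.22, limma adjusted p = 0.00316) against WT. The ratio of Pax5 to Ebf1 within a library was 0.527 to 0.877 in WT, 0.592 to 0.746 in ∆Firre, and 0.736 to 1.03 in the rescue, so that the range of the rescue overlapped with both others.

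Pou2af1 (chr9:51213690-51240079) encodes OBF-1, a coactivator of octamer-binding proteins in B cells. Its levels were 28.5, 41.2, 42.1, and 53.9 TPM in WT, 36.4, 53.3, 51.9, and 36.4 TPM in ∆Firre, and 65.4, 108, 80.9, and 96 TPM in the rescue. The rescue libraries were again all higher. Rescue 2 and 4 had the highest Firre (135 and 174 TPM) and the highest Pou2af1, but Pou2af1 was higher in rescue 2. Pax5 and Ebf1 were highest in rescue 3 and 4, and Lef1 in rescue 1 and 4. A relation of the members to the Firre level was not tested. The log2 fold change of Pou2af1 was 0.96 (SE 0.21, limma adjusted p = 0.0087) against ∆Firre and 1.07 (SE 0.21, limma adjusted p = 0.00553) against WT.

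Lef1 (chr3:131110297-131224357), an effector of Wnt signaling used by pro-B cells, was the least abundant member in WT and rested on 77 to 777 reads per library. It reached 8.21, 7.93, 5.55, and 8.95 TPM in the rescue, above the highest WT library (5.05 TPM) and the highest ∆Firre library (3.94 TPM). The log2 fold change was 1.19 (SE 0.26, limma adjusted p = 0.00837) against ∆Firre. Against WT it was 0.8 (SE 0.26, limma adjusted p = 0.0501), and this call was lost without WT 6 (adjusted p 0.101), WT 10 (0.115), or rescue 4 (0.112) in the same limma fit, with no filter on low values (0.121), and at a threshold of 0.05.

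Foxo1 (chr3:52268337-52350109), a partner of Ebf1 that also drives Rag gene expression, gave a smaller difference. Its levels were 21.6, 15.5, 21.1, and 30.8 TPM in WT, 21.9, 28.1, 23.8, and 21.6 TPM in ∆Firre, and 27.1, 27.8, 37.4, and 38.9 TPM in the rescue. The groups overlapped in both comparisons. The log2 fold change was 0.56 against WT (SE 0.2, limma adjusted p = 0.0695) and 0.43 against ∆Firre (SE 0.2, limma adjusted p = 0.141), which was not called. The call against WT was lost in the limma fit without WT 6 (adjusted p 0.121), WT 8 (0.165), WT 10 (0.134), rescue 3 (0.122), or rescue 4 (0.164). It was also lost with no filter on low values (0.12), with only the 2 groups in the limma fit (0.148), relative to Flt3 and Il7r (0.101), and at a threshold of 0.05. The call against ∆Firre was gained without WT 8 (0.0936) or WT 11 (0.0987), and also after median-ratio rescaling (0.0598), with limma-voom on recovered reads (0.0206), and after GC correction (0.031).

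Ikzf3 (chr11:98464610-98546031) encodes Aiolos, an Ikaros family member known from later B cells and from NK cells, and was the 1 member called lower. WT levels were 21.4, 12.1, 10, and 23.7 TPM and ∆Firre levels 16.1, 25.7, 10.9, and 14.9 TPM. The rescue libraries held 3.78, 3.24, 5.71, and 3.95 TPM, all below the lowest library of the other groups. The log2 fold change was -1.75 (SE 0.31, limma adjusted p = 0.00271) against ∆Firre and -1.72 (SE 0.31, limma adjusted p = 0.00357) against WT. Ikzf3 amounted to 2.17% to 5.01% of the Ikzf1 level in WT, 2.64% to 5.82% in ∆Firre, and 0.866% to 1.15% in the rescue.

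The remaining 4 members were not called in either comparison with the rescue. Ikzf1 lay between 406 and 473 TPM in the 8 WT and ∆Firre libraries and between 374 and 496 TPM in the rescue, and Myb between 604 and 759 TPM and between 560 and 739 TPM. Against ∆Firre the interval of the difference was -0.17 to 0.19 for Ikzf1 and -0.25 to 0.17 for Myb. Bcl11a spread most within the rescue, from 53.5 to 90.7 TPM, and its interval against ∆Firre ran from -0.15 to 0.45. Bach2 (chr4:32238413-32586109), a repressor that restrains myeloid and plasma cell programs, was at 13.6, 13, 18.3, and 19 TPM in the rescue and 16 to 22.4 TPM in the other libraries, with a log2 fold change of -0.31 against ∆Firre (limma adjusted p = 0.201). These calls depended on how GC content was handled. Once the libraries were adjusted for the GC content of exons, Bcl11a (0.53, limma adjusted p = 0.0129), Ikzf1 (0.28, 0.0328), and Myb (0.28, 0.0864) were called higher than in ∆Firre, and 9 of 10 members were called, 8 higher and 1 lower. Over all 13086 genes in that corrected fit, 13.7% were called higher and 5.8% lower. Bcl11a was also called higher than WT after that correction (0.38, limma adjusted p = 0.0696), and higher than ∆Firre on recovered reads (0.27, 0.0774). Without rescue 3, Ikzf1 was called lower than in WT (-0.18, limma adjusted p = 0.068). The sign of the Ikzf1 and Myb differences changed with the scaling.

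**Figure D2:**
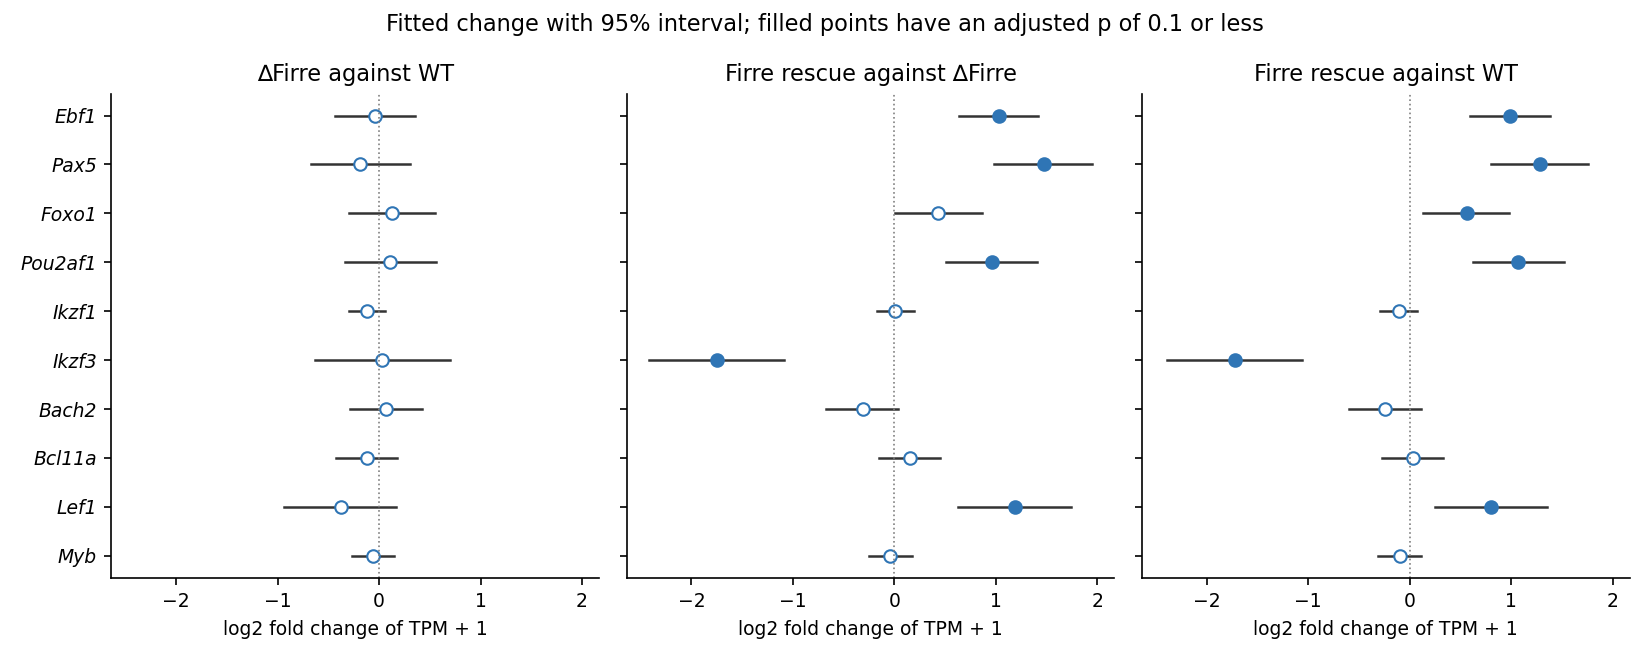
Points give the fitted log2 fold change of each factor in the 3 comparisons, lines the 95% interval, and filled points an adjusted p of 0.1 or less. All 10 intervals include 0 for ∆Firre against WT, and against both groups Ebf1, Pax5, Pou2af1, and Lef1 lie above 0 and Ikzf3 below 0 in the rescue.

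Factors whose level followed the same course over the libraries were looked for by the root mean square difference between centred log2(TPM + 1) profiles over the 12 libraries. The genes nearest to Ebf1 (own spread 0.53) were Blnk (0.19), an adaptor of B cell receptor signaling, Cd79b (0.2), a signaling chain of that receptor, and Cecr2 (0.2). Nearest to Pax5 (own spread 0.72) were Pde2a (0.19), Cecr2 (0.21), and Akap12 (0.26). For Pou2af1 (own spread 0.56) the nearest gene was Ebf1 itself (0.23), before Blnk (0.24) and Rag1 (0.25), a recombinase subunit. Ikzf3 differed from Ebf1 by 1.36. These distances are descriptions and share library depth and base composition. Each profile was centred on its mean over all 12 libraries, so the difference of the rescue from the other groups enters every distance. A near gene may share that difference alone.

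Early B-lineage genes, a list of 19 that includes known targets of Ebf1 and Pax5, were read beside the factors. Against ∆Firre, 13 of 19 were called higher in the rescue and 1 lower, with a median log2 fold change of 0.73. Over all genes tested 8.58% were called higher and 19.3% lower, with a median of -0.16. Against WT, 11 were higher and 1 lower, with a median of 0.85, beside 4.82%, 19.4%, and -0.21 over all genes. Between ∆Firre and WT none was called by limma. Of the surrogate light chain genes, Vpreb1 was 28 to 60 TPM in the 8 WT and ∆Firre libraries and 147 to 257 TPM in the rescue, with log2 fold changes of 2.5 (SE 0.24, limma adjusted p = 6.92e-05) against ∆Firre and 2.36 (SE 0.24, 0.000135) against WT. Igll1, which encodes its partner λ5, went from 18.4 to 41.3 TPM in those libraries to 93.4 to 210 TPM, by 2.43 (SE 0.3) and 2.2 (SE 0.3). Vpreb3 rose by 2.34 (SE 0.32) against WT, and Vpreb2, whose libraries overlapped, by 1.45 against ∆Firre (limma adjusted p = 0.0537) but was not called against WT (1.21, 0.106). Cplx2, a synaptic vesicle protein gene also used as an early B-cell marker, rose by 2.73 (SE 0.3) against ∆Firre. Cd79a, Cd79b, Blnk, Ly6d, Rag1, Blk, and Cd24a were called higher in both comparisons as well. Fcrla, an Fc receptor-like protein of B cells, was the 1 gene called lower, by -1.9 (SE 0.46, limma adjusted p = 0.0142) against ∆Firre and -1.6 (SE 0.46, 0.0331) against WT. Its rescue libraries held 7.09, 3.14, 0.596, and 0.912 TPM, and the lowest of the others 7.26 TPM.

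The other regulators, a list of 19, did not move as a block. In the rescue 3 were called higher and 5 lower than in ∆Firre, and 1 higher and 8 lower than in WT, with medians of -0.23 and -0.27. Over all genes tested 8.58% were called higher and 19.3% lower than in ∆Firre, and 4.82% and 19.4% than in WT, with medians of -0.16 and -0.21. The medians of this list lay near those of all genes. The 8 of 19 called lower than in WT were a larger share than the 19.4% of all genes, and the calls of this list varied with the processing. Tcf3, which encodes the E2A proteins that act just ahead of Ebf1, was at 141, 108, 146, and 166 TPM in the rescue, at 73.1 to 93.1 TPM in WT, and at 48.5, 46.7, 62.1, and 69.7 TPM in ∆Firre. Its log2 fold change was 1.3 (SE 0.15, limma adjusted p = 0.000243) against ∆Firre and 0.71 (SE 0.15, 0.00977) against WT. ∆Firre and WT libraries did not overlap for Tcf3 either, but that difference of -0.59 was not called (limma adjusted p = 0.889). Runx1, needed for lymphoid progenitors, was lower by -0.58 (SE 0.13, limma adjusted p = 0.0117) than in ∆Firre and by -0.73 (SE 0.13, 0.00411) than in WT, and the first of these was lost after GC correction (adjusted p 0.2). Ets1 (-0.4 and -0.47) and Mef2c (-0.38 and -0.33) were also called lower in both, but Mef2c turned to 0.06 and 0.08 after GC correction, and its call against WT was also lost after median-ratio rescaling and with limma-voom. Apart from leaving out libraries, the Ets1 calls held in only 3 of the other settings against ∆Firre and 2 against WT, and were lost in both with no filter, after median-ratio rescaling, with limma-voom, after GC correction, and relative to Flt3 and Il7r. With 1 library left out, the Ets1 call against ∆Firre held in 4 of 12 fits (without WT 6, WT 8, WT 10, or ∆Firre 11), and that against WT was lost without WT 6, WT 11, rescue 1, or rescue 4.

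**Figure D3:**
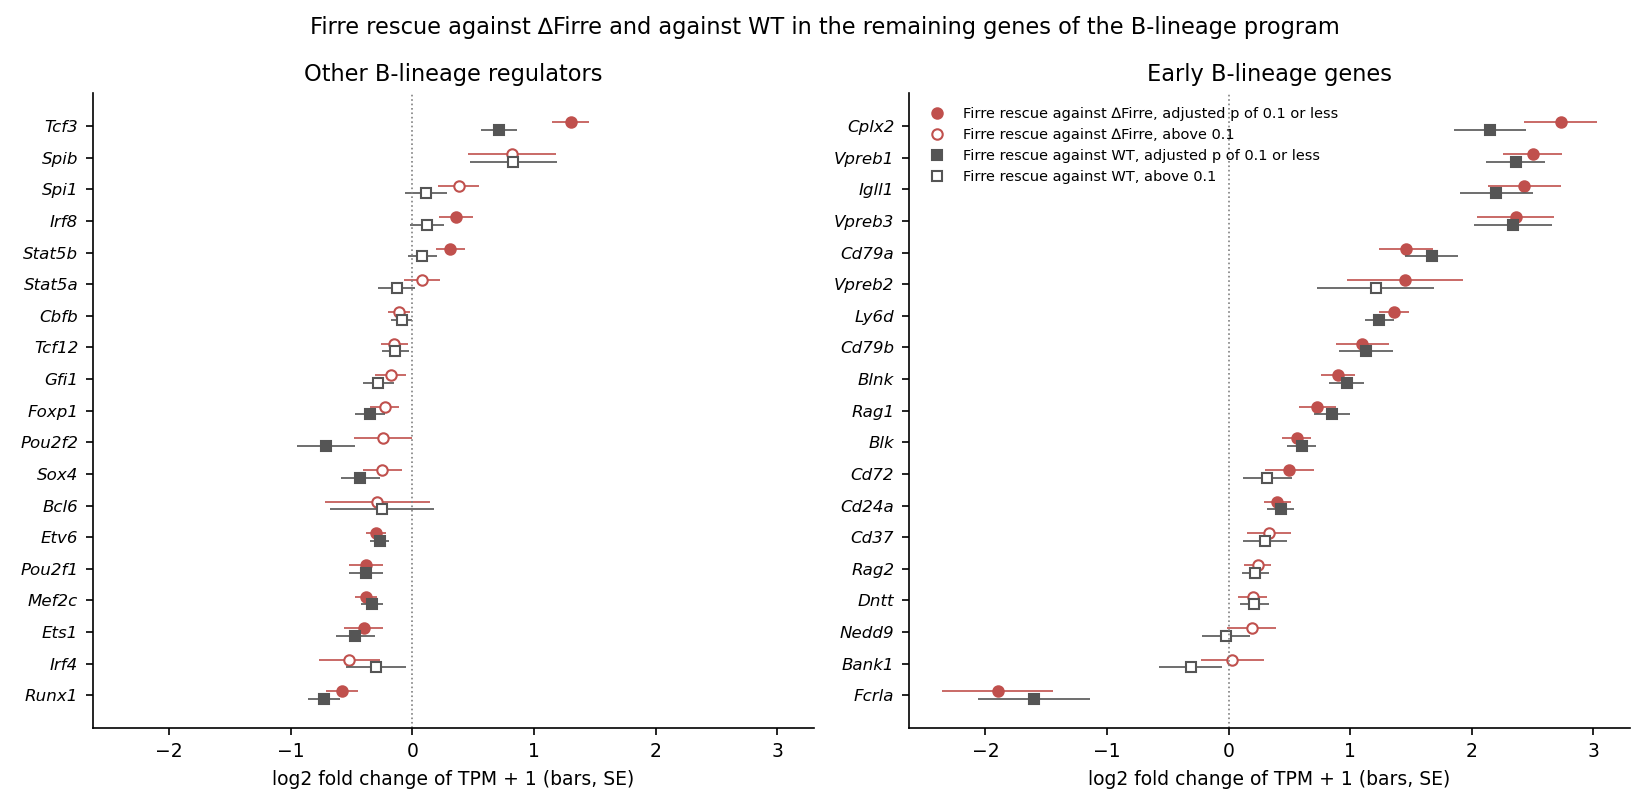
The left panel shows the other regulators and the right panel the early B-lineage genes, with the fitted log2 fold change of the rescue against ∆Firre (circles) and against WT (squares), SE as bars, and filled symbols for an adjusted p of 0.1 or less. Tcf3 stands apart on the left at 1.3, and on the right 18 of 19 genes lie above 0 against ∆Firre while Fcrla lies at -1.9.

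Markers of other cell types moved with the groups, and less RNA of a type may be fewer cells or less RNA per cell, which cannot be told apart here. The 7 basophil, mast cell, and eosinophil markers summed to 1100 to 8960 TPM in WT and 2930 to 4370 TPM in ∆Firre, and to 68.1 to 294 TPM in the rescue, where 5 of 7 were called lower in each comparison. Prss34, a basophil protease and the highest of them in WT and ∆Firre, was at 448 to 4030 TPM in WT and 0 to 23.8 TPM in the rescue. The 8 innate lymphoid and NK cell markers summed to 385 to 754 TPM in WT, 468 to 679 TPM in ∆Firre, and 276 to 328 TPM in the rescue, with Nkg7 the highest, and 5 of 8 were called lower in each comparison with the rescue. The 8 plasma cell markers summed to 883 to 1640 TPM, 1630 to 3440 TPM, and 307 to 534 TPM. Jchain, the highest of them in WT and ∆Firre, was at 1.18 to 195 TPM in the rescue. Jchain made up most of the sum in WT (619 to 1300 TPM) and ∆Firre (1370 to 3110 TPM), so the sum fell mainly through it. Of those 8, 5 were called lower than in ∆Firre and 2, Mzb1 (1.34) and Sdc1 (0.68), higher. Against WT, 4 were called lower and 1, Mzb1 (1.3), higher. The part of these marker changes in the member results was not tested.

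Single markers of NK cells and mature B cells gave the following values. Ncr1, a receptor of NK cells, was at 216, 67.6, 112, and 288 TPM in WT, at 168, 226, 130, and 118 TPM in ∆Firre, and at 20.4 to 37.4 TPM in the rescue. It was lower by a log2 fold change of -2.34 against ∆Firre (limma adjusted p = 0.00188) and -2.26 against WT (0.00273), while Nkg7 was not called (-0.18 and -0.19). Mature B cells were read from 7 matched markers of 8, of which 5 were tested and 2 were called lower in each comparison with the rescue. Ms4a1, which encodes CD20, was at 1.24 to 3.64 TPM in WT and ∆Firre and at 0, 1.22, 0, and 0.0172 TPM in the rescue. The summed mature B cell markers were 215 to 447 TPM in WT, 266 to 341 TPM in ∆Firre, and 163 to 270 TPM in the rescue, with Cd74 the highest and Cr2 at 0 in every rescue library.

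The sums of the other lists overlapped between the rescue and at least 1 other group, but single markers in them were called. T cell markers summed to 131 to 196 TPM in WT, 125 to 161 TPM in ∆Firre, and 125 to 154 TPM in the rescue, with Lck the highest and Cd3e at most 0.732 TPM. Of 5 T cell markers tested, 2 were called lower than in ∆Firre and 1 lower than in WT, with Bcl11b at -1.04 (limma adjusted p = 0.013) and -1.32 (0.0045). Plasmacytoid dendritic cell markers summed to 527 to 636, 507 to 561, and 597 to 759 TPM in the same order. Of those 5, 2 were called higher and 2 lower than in ∆Firre, and 1 higher and 1 lower than in WT. Cox6a2, the highest, was at 0.95 (limma adjusted p = 0.00872) and 0.79 (0.0228), and Tcf4 at -0.65 (0.015) and -0.79 (0.00682). Monocyte and neutrophil markers (Lyz2 the highest) overlapped in sum between all 3 groups, and 1 of 6, Mpo, was called lower in both comparisons, at -0.56 (limma adjusted p = 0.0288) and -0.62 (0.0208). Erythroid markers (4 of 5 matched, Car1 the highest) also overlapped in sum, and none of the 4 was called by limma.

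**Figure D4:**
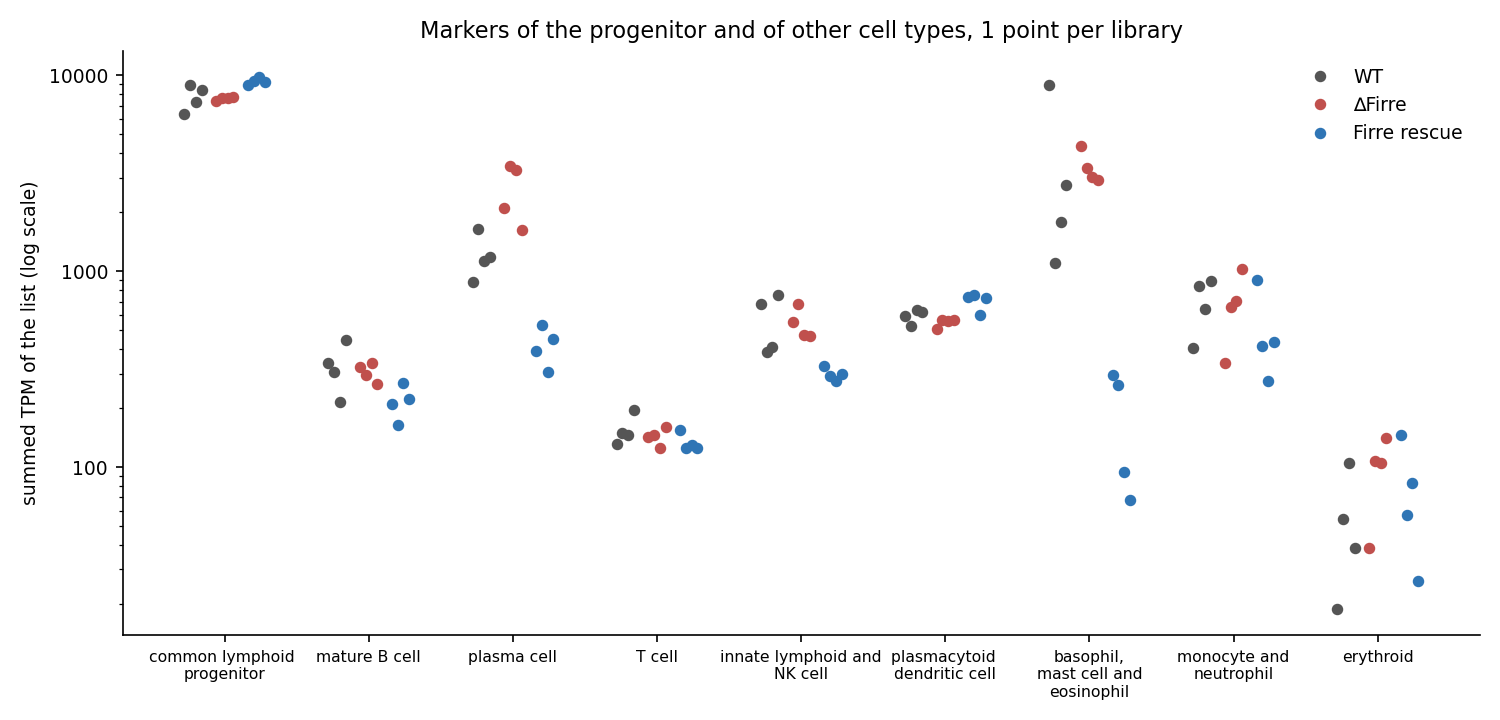
Each point is the summed TPM of 1 marker list in 1 library on a log axis, colored by group. The basophil, mast cell, and eosinophil list falls to 68.1 to 294 TPM in the rescue and the plasma cell list to 307 to 534 TPM, both without overlap with WT or ∆Firre. Most of the plasma cell sum in WT and ∆Firre is Jchain, and Mzb1 of that list was called higher in the rescue.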

How the data were processed

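Poly(A)+ RNA of sorted CLPs was sequenced as paired ends, 1 library per mouse. The authors trimmed reads with cutadapt, mapped them to mm10 with TopHat2 2.1.1, used featureCounts with the Gencode annotation for gene counts, and deposited these as TPM. Strand setting and gene lengths are not given in the sources used here.

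Members, lists, and tests were chosen with earlier results of these data known. Genes averaging 1 TPM or more were tested on log2(TPM + 1) with limma 3.58.1 in R 4.3.3 (mean-variance trend, all 12 libraries in 1 fit, two-sided). P-values were adjusted by Benjamini-Hochberg over 14479 genes, and genes were called at 0.1. A fold change on this scale understates the change of low genes. P-values set a group difference against the spread between mice within groups, pooled over WT, ∆Firre, and the rescue. For the rescue they do not cover a difference between ranges of library numbers.

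Reads behind the TPM values were recovered from their spacing, with whole reads within 0.05 in every library for 14476 of the 14479 genes. They came to 10900594 to 18007929 per WT, 14232137 to 17412810 per ∆Firre, and 25530170 to 32299941 per rescue library. In the shallowest library 1 read on 1 kb was worth 0.284 TPM. Intervals cover the spread between libraries.

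Named were all members, Firre, the 3 called list genes of largest rise and of largest fall whose libraries did not overlap, the 3 nearest profiles, and the highest marker of each list. Further genes were named where a result turned on them. Symbols were found for 32799 of 47643 genes, and Ighd and Hbb-bt were not matched. Promoters and positions came from RefSeq tables of GRCm38. GC content came from an older annotation, for 13086 of the genes tested (90.4%). 1 gene of the early B-lineage list is not reported here, and the list's counts leave it out. The fit was tested on simulated data, and no result of that test is used here.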

Additional observations from a re-analysis of the deposited data

Results flagged for a closer look

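In 1 of 60 sets of 4 libraries, a library stood far from the other 3. Fcrla in WT 11 was at 3.08 on the log2(TPM + 1) scale, and the other WT libraries lay between 3.31 and 3.35. The gap was 0.851 of the range, above Dixon's critical value at the 95% level. Chance alone would mark about 1 in 20 sets, or 3 of 60. No member or Firre value was marked in any group.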

How the results depend on the processing

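For ∆Firre against WT, 0 members, 0 early B-lineage genes, and 0 other regulators were called under every alternative run. For the rescue, Ebf1, Pax5, Pou2af1, and Ikzf3 kept their direction and call under every alternative, and Lef1 did so against ∆Firre, apart from the filter of mean TPM of at least 5, which removed it. Between 5 and 6 members were called against ∆Firre and between 4 and 6 against WT when 1 library was left out. After GC correction 9 members were called against ∆Firre, 8 of them higher, where 13.7% of all genes were called higher and 5.8% lower. Among the other regulators, the count against ∆Firre was 8 and fell to 4 at an adjusted p of 0.05, 5 with no filter, and 4 relative to Flt3 and Il7r, a setting added after the data were seen that moved the median of all genes only from -0.161 to -0.175. Against WT it was 9 and fell to 4 at an adjusted p of 0.05, 5 with no filter, 3 after median-ratio rescaling, 4 with only the 2 groups in the fit, 5 with limma-voom, and 4 after GC correction. With 1 library left out it ran from 4 to 8 against ∆Firre, lowest without ∆Firre 8 or ∆Firre 9, and from 5 to 11 against WT, highest without rescue 3. Rescaling by the median ratio moved the median of all genes from -0.161 to -0.052 against ∆Firre and from -0.208 to -0.034 against WT, and GC correction moved it to 0.079 and 0.043.

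Changes of sign were seen in small differences. For ∆Firre against WT, Ebf1 gave 0.03 and Myb 0.01 after median-ratio rescaling, Ebf1 gave 0.05 and Myb 0.02 with limma-voom, and Pax5 gave 0.01 after GC correction. With 1 library left out, Ebf1 ran from -0.2 to 0.05, Foxo1 from -0.03 to 0.29, Pou2af1 from -0.05 to 0.25, Ikzf3 from -0.18 to 0.22, and Bach2 from -0.01 to 0.14. For the rescue against ∆Firre, Myb gave 0.08 after rescaling, 0.08 with limma-voom, and 0.28 after GC correction, Mef2c gave 0.06 after GC correction, and Ikzf1 gave -0.0 relative to Flt3 and Il7r. With 1 library left out, Ikzf1 ran from -0.06 to 0.07 and Myb from -0.1 to 0.03. For the rescue against WT, Ikzf1 gave 0.08 after rescaling, 0.08 with limma-voom, and 0.15 after GC correction, and Myb gave 0.09, 0.1, and 0.2. Bach2 gave 0.02 and Mef2c 0.08 after GC correction, and Bcl11a ran from -0.1 to 0.15 with 1 library left out. The cause was not tested.

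WT and ∆Firre mice share the numbers 8 and 11, but the labels do not pair them. Same-numbered libraries had deviations with correlations of -0.0328 and -0.0411. With the mouse number as a replicate block, no member was called, and Pou2af1 (-0.11), Ikzf3 (-0.33), and Bach2 (-0.09) changed sign. Under that block Ebf1 moved from -0.04 to -0.49, Pax5 from -0.19 to -0.53, Lef1 from -0.38 to -0.7, and Myb from -0.06 to -0.2. Only numbers 8 and 11 occur in both genotypes, so the block compares WT 8 and 11 with ∆Firre 8 and 11 alone. Those are the libraries of the lower number range, and the block values repeat the differences within that range. With the replicate block and GC correction together, Pou2af1 gave -0.15, Ikzf3 -0.37, Bach2 -0.13, Ebf1 -0.54, Pax5 -0.33, Lef1 -0.74, and Myb -0.24. With the library number range as a block, no member was called.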
